A study of Mus musculus with 31 samples.

Results

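Oxidative phosphorylation (OXPHOS) is carried out by 5 protein complexes of the mitochondrial inner membrane. Complexes I, II, III and IV pass electrons from NADH and succinate to oxygen, and the ATP synthase uses the proton gradient that complexes I, III and IV build to make ATP. Apart from complex II, each complex mixes a few subunits made from mitochondrial DNA with many subunits that nuclear genes encode, so a tumor cell has to make and import most of this machinery from the nuclear genome. The nuclear-encoded genes were taken here by name, as all genes starting with Nduf, Uqcr, Sdh, Cox4, Cox5, Cox6, Cox7, Cox8 or Atp5 and not carrying -ps, the mark of a pseudogene. This gave 97 entries with 96 symbols among the 46072 genes listed. A second Uqcrc1 entry on a patch sequence and Cox8c were at 0 in every library. By role, 7 of the entries were catalytic core subunits of complex I, 29 its accessory subunits, 4 were subunits of complex II, 9 of complex III and 11 of complex IV, and 7 were complex IV isoforms of particular tissues. The ATP synthase held 15 subunits in its F1 head, c ring, stalk and membrane accessory parts. Another 12 were assembly factors, which build the complexes without staying in them, and cytochrome c1, Cyc1, fell outside the naming rule.

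The RNA came from tumors of RM-9 (RM9 in the labels), a mouse prostate cancer line, and MC-38 (MC38), a mouse colon cancer line, grown under the skin of the right hind leg of wild-type C57BL/6J males that were 6 to 7 weeks old when bought. Tumors of about 8 mm received 1 dose of 15 Gy and were collected 3 h, 12 h or 24 h later, 4 mice per group (3 for RM-9 RT 24 h). The untreated control group of each model, 4 mice, carried the 3 h time point in its labels, served all 3 comparisons of that model and left the later times without a control of their own. Each model is 1 cell line in 1 strain. Levels are TPM, a read density per transcript length within a library, rescaled so that genes outside the mitochondrial genome add up to the same total in each library. Depth was 21.4 to 29.4 M reads. Mitochondrial genes took 47.3% to 57.2% of the deposited TPM in RM-9 and 22.5% to 40.6% in MC-38, and this share moves every level on the deposited scale. Chromosome 1 copies of mitochondrial genes stayed in the rescaled total, at 11.1% to 18.9% of it in RM-9 and 4.48% to 12.4% in MC-38. Their mean share was 12.9% in RM-9 controls and 17.1% at 12 h. In MC-38 it was 8.66% in controls and 6.28% at 12 h, so these copies move every rescaled level too. The labels call both tumors adenocarcinoma. The 5 epithelial markers (Krt8, Krt18, Krt19, Epcam, Cdh1) added up to 1564 to 2895 TPM in RM-9 but only 0.762 to 2.08 TPM in MC-38, where Krt8 was at or near 0. The 16 skeletal muscle markers ranged from 8.84 to 25112 TPM in sum, above 2000 TPM in 11 libraries (6 RM-9 and 5 MC-38). In a bulk tumor, fewer cells of a type and less RNA per cell cannot be told apart.

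Together the OXPHOS genes made up close to 2% of the RNA outside the mitochondrial genome. Their summed share was 1.90% ± 0.154 (SD, n = 4) in RM-9 controls, 1.705% ± 0.114 at 3 h, 1.79% ± 0.151 at 12 h and 1.91% ± 0.0794 (n = 3) at 24 h after RT. In MC-38 it was 2.166% ± 0.103 in controls, 2.08% ± 0.103 at 3 h, 1.97% ± 0.0215 at 12 h and 2.06% ± 0.160 at 24 h. The 4 MC-38 tumors at 12 h lay closest to each other, from 1.94% to 1.99%, and all were below the lowest control at 2.07%. RM-9 control mouse 3 stood apart from its group at 1.67%, against 1.96% to 1.99% in the other 3 controls.

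**Figure D1:**
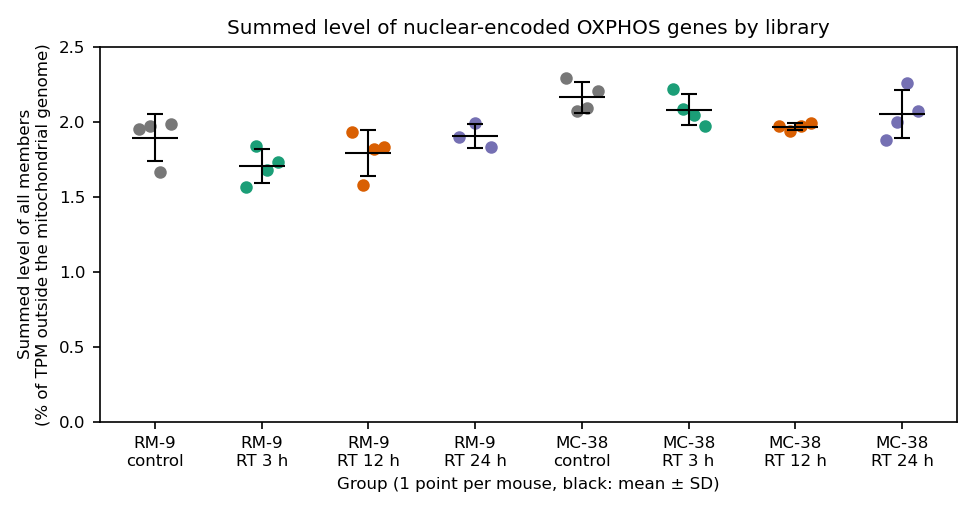
Summed level of the 97 OXPHOS entries in each of the 31 libraries, as a percent of the TPM outside the mitochondrial genome (y axis), by group (x axis). Points are mice and black bars are the mean ± SD. The MC-38 RT 12 h tumors (1.94% to 1.99%) sit below all 4 MC-38 controls, and RM-9 control mouse 3 (1.67%) sits below the other RM-9 controls.

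Most members were abundant, as 62 had a mean of at least 100 TPM over the 31 libraries. Levels of different genes are compared here as TPM, which is per length. Atp5b, the catalytic beta subunit of the ATP synthase, was highest at a mean of 1311 TPM. Cox8a, Cox4i1 and Cox6a1, ubiquitous small subunits of complex IV, followed at 816, 803 and 762 TPM, and Atp5g3, which encodes the c ring protein, stood at 635 TPM. For 32 members the deposited TPM was more than 2 times that implied by the coverage column (12.1 times for Ndufb2), so this order of genes is less certain than comparisons of 1 gene between groups. The members lay on 20 chromosomes, and 24 overlapped another expressed gene.

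The first question was whether RT shifted these genes against untreated tumors of the same model. Differences are given on the log2(TPM + 0.5) scale from limma, fitted across all genes, and a gene is called changed where its Benjamini-Hochberg adjusted p was under 0.05. In MC-38 tumors 12 h after RT, 16 of 95 members tested fell (16.8%) and none rose. Over all 16289 genes the same test called 4.22% lower and 19.6% higher. At an unadjusted p under 0.05 there were 26 members lower and 2 higher, against 7.34% and 33.9% of all genes. Complex I accounted for 8 of the 16, complex III for 2, complex IV for 3 and the ATP synthase for 3, while none of the 4 complex II subunits and none of the 12 assembly factors passed the test. The 16 means fell by 15.1% to 23.6% of the control mean.

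Ndufb8, an accessory subunit of the membrane arm of complex I (chromosome 19, 44548572 to 44555440, minus strand, coordinates of GRCm38), had the smallest p. Its 4 controls were at 348, 313, 300 and 283 TPM and the 4 RT 12 h tumors at 246, 230, 235 and 254 TPM. Every irradiated tumor was below every control, and the log2 difference was −0.36 (SE 0.0808, adjusted p = 0.00987 by limma). Its locus overlaps the predicted gene Gm20538 on the same strand, so reads of that gene may be counted with it.

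Ndufs8 (chromosome 19, 3908870 to 3912717, minus strand), an iron-sulfur core subunit through which electrons pass toward ubiquinone, was the only one of 7 core subunits of complex I to fall. It went from 112, 99.2, 95.9 and 95.1 TPM in controls to 85.2, 79.3, 80.3 and 82.5 TPM, with no overlap (−0.29, SE 0.0696, adjusted p = 0.0127 by limma). The other core subunits tested moved less or upward. Ndufs1, the largest core subunit, was at 96.4, 94.5, 102 and 90.7 TPM in controls and at 106, 109, 108 and 112 TPM after RT. All 4 irradiated tumors were above the controls, but the difference did not pass (+0.18, adjusted p = 0.0649 by limma). Ndufv1, which binds NADH, differed by +0.04 with an adjusted p of 0.790.

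Accessory subunits of complex I surround the core and are needed for its assembly and stability. Of 29, 7 fell: Ndufb8, Ndufa2, Ndufa13, Ndufc2, Ndufb11, Ndufb5 and Ndufs6, with log2 differences from −0.36 to −0.27. For Ndufa2, controls were at 213, 197, 196 and 217 TPM and RT 12 h tumors at 169, 172, 168 and 171 TPM, a narrow band wholly below the controls. For Ndufb5 and Ndufc2 at least 1 irradiated tumor reached into the control range. Ndufa13, Ndufa2, Ndufb11, Ndufb5 and Ndufc2 each overlap another expressed gene.

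The complex IV members that fell were Ndufa4, Cox7b and Cox6c, small subunits without a redox center. Ndufa4 (chromosome 6, 11900373 to 11907446, minus strand) carries a complex I name but belongs to complex IV, and at 740, 624, 626 and 704 TPM in controls it was the most abundant of the 16. After 12 h it stood at 530, 490, 541 and 513 TPM, all below the lowest control (−0.37, SE 0.0911, adjusted p = 0.0137 by limma). The ubiquitous Cox4i1 was at 816 to 853 TPM in controls and 843 to 895 TPM after RT, with groups that overlapped (+0.04, adjusted p = 0.730). Cox5b and Cox8a differed by −0.03 and −0.07 and did not pass.

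In the ATP synthase, the fall was in small subunits. Atp5k (chromosome 5, 108433244 to 108434448, minus strand) and Atp5l encode subunits e and g, which lie together in the membrane where ATP synthase dimers form. Atp5k went from 293, 257, 245 and 258 TPM to 216, 208, 217 and 201 TPM, without overlap (−0.32, SE 0.0717, adjusted p = 0.0103 by limma). Atp5l went from 195, 179, 171 and 190 TPM to 137, 136, 144 and 145 TPM, also without overlap, and had the largest log2 difference of the 16 (−0.39, SE 0.0963, adjusted p = 0.0152 by limma). Its value carries a limit, because the pseudogenes Atp5l-ps1 and Atp5l2-ps were listed at means of 75.3 and 86.9 TPM and may share reads with it. Atp5e, the epsilon subunit of the F1 head, fell by 0.36 on the log2 scale, from 390 ± 69.0 TPM to 301 ± 18.7 TPM (SD, n = 4 each; adjusted p = 0.0247 by limma).

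The large catalytic subunits of the same head did not pass the test. Atp5b was at 1444, 1447, 1455 and 1549 TPM in controls and at 1397, 1389, 1392 and 1362 TPM 12 h after RT. The groups did not overlap, but the shift was small (−0.09, SE 0.0449, adjusted p = 0.146 by limma). Atp5a1, the alpha subunit, differed by +0.05 with a 95% interval from −0.22 to +0.33. In complex III, Uqcrq and Uqcr11, small subunits beside cytochrome b, fell by 0.33 and 0.37 on the log2 scale (adjusted p = 0.0425 and 0.0374 by limma), while the core protein Uqcrc1 and the Rieske iron-sulfur protein Uqcrfs1 differed by −0.02 and −0.08 and did not pass. Uqcrq controls were at 276, 298, 281 and 223 TPM and the irradiated tumors at 210, 212, 219 and 210 TPM, with the lowest control only just above them.

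Complex II, which has 4 nuclear subunits, none from mitochondrial DNA, and a second role in the TCA cycle, stayed near its control level. Sdha, the catalytic flavoprotein, was at 150, 127, 141 and 152 TPM in controls and at 146, 148, 151 and 162 TPM after 12 h, with overlapping groups (+0.10, 95% interval −0.06 to +0.25, adjusted p = 0.317 by limma). Sdhb, Sdhc and Sdhd differed by −0.01, +0.04 and +0.01. Against an all-gene median of +0.20, the median log2 difference was +0.02 over complex II, −0.12 over complex I, −0.11 over complex III, −0.17 over complex IV and −0.17 over the ATP synthase.

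The order of the mice gives the same comparison without a model. In 29 members all 4 irradiated MC-38 tumors were below all 4 controls, and in 3 all were above, where 4.49% of all genes lay wholly below and 27.3% wholly above. The 3 were Ndufs1, described above, the complex I assembly factor Ndufaf7 (+0.22, adjusted p = 0.0722 by limma) and Atp5s (+0.24, adjusted p = 0.189). Another assembly factor, Ndufaf4, had the highest difference of all members tested, with groups that overlapped (+0.36, adjusted p = 0.171). For a single member with such a separation, the exact two-sided permutation test gives p = 0.0286, the smallest it can give for 4 against 4.

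**Figure D2:**
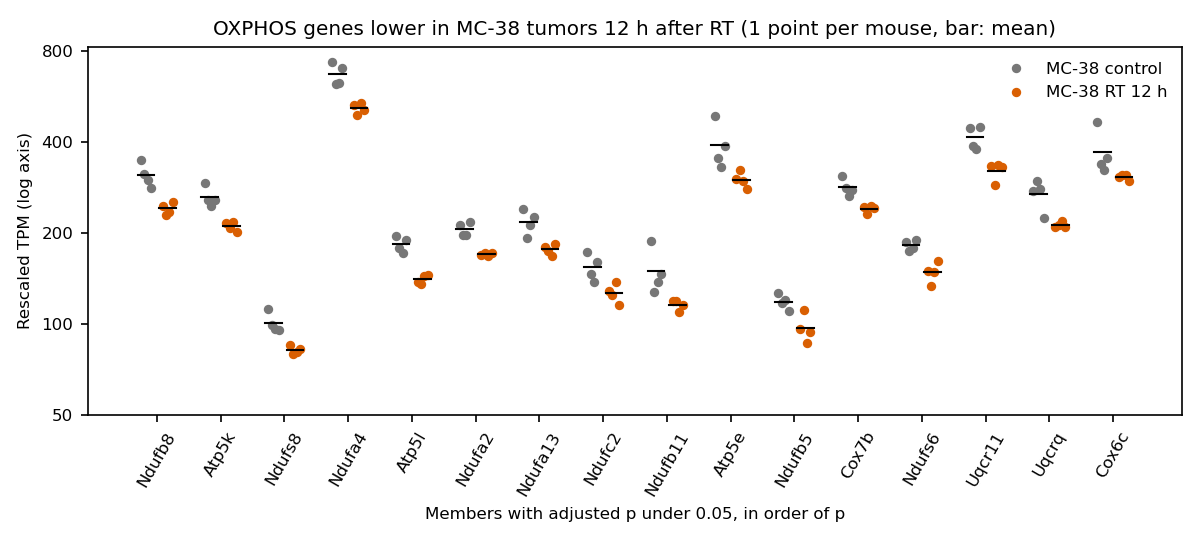
TPM outside the mitochondrial genome (y axis, log scale) of the 16 OXPHOS genes that fell in MC-38 tumors 12 h after RT, in order of p (x axis). Each point is 1 mouse, grey for control and orange for RT 12 h, and bars are group means. The irradiated group lies wholly below the controls in 14 of the 16, Ndufc2 and Ndufb5 being the exceptions.

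This count depends on the scale and on a few libraries. On the deposited scale, which includes the mitochondrial genes, 0 members fell and 2 rose, Sdha and Ndufs1 (+0.23 and +0.32, adjusted p = 0.0458 and 0.0260 by limma), the member median being +0.02 and the all-gene median +0.33. With median-ratio scaling 39 fell and none rose, the medians being −0.32 and +0.01. The 16 muscle markers were all lower at 12 h, none past the test. Their sum was 25112, 35.7, 253 and 3528 TPM in MC-38 controls and 59.6, 795, 29.7 and 14.6 TPM at 12 h, and Ckm, a muscle creatine kinase, was above 0 in all of these. Without the muscle-rich libraries, which leaves controls 2 and 3, 0 members passed, although Ndufb8 still differed by −0.35 (adjusted p = 0.0843) and Ndufs8 by −0.25 (0.103). With the muscle sum as a covariate 4 passed: Ndufb8, Atp5l, Uqcrq and Atp5k. Of the 6 macrophage markers 5 fell at 12 h, their sum going from 1091 to 1873 TPM in controls to 389 to 940 TPM, and 5 of 6 T cell markers fell too. The part of these cells in the OXPHOS result was not tested. Leaving out 1 library gave 6 calls without control 1, 10 without control 4, 8 without RT 12 h mouse 3, 9 without RT 12 h mouse 2 or mouse 4, and 12 to 21 without any other.

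At 24 h after RT in MC-38, 4 of 95 members fell and none rose (all genes 2.76% lower and 13.3% higher). The share of members called lower was thus near that of all genes, and the genes below are given as single values. At an unadjusted p under 0.05 there were 16 lower and 3 higher (6.3% and 24.4%). Ndufs8 fell again, to 74.3, 77.1, 87.7 and 82.3 TPM, below every control (−0.32, SE 0.0696, adjusted p = 0.00682 by limma). Atp5g2, 1 of 3 genes for the c subunit that forms the proton-driven ring, was at 226, 234, 237 and 213 TPM in controls and at 199, 168, 196 and 182 TPM after 24 h, without overlap (−0.29, SE 0.0713, adjusted p = 0.0132 by limma). Its sister genes Atp5g1 and Atp5g3, which encode the same mature protein, did not pass.

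Ndufa6, an accessory subunit of complex I, was at 196, 161, 174 and 163 TPM in controls and at 134, 135, 154 and 132 TPM after 24 h, again without overlap (−0.32, adjusted p = 0.0173 by limma). Ndufa2 was called with overlapping groups (−0.24, adjusted p = 0.0279). Both times use the same 4 controls. Side by side, 3 of the 4 members with the smallest p at 12 h were nearer the control level at 24 h: Ndufb8 had means of 311, 241 and 263 TPM at control, 12 h and 24 h, Atp5k of 263, 211 and 243 TPM, and Ndufa4 of 674, 518 and 587 TPM. The other, Ndufs8, was no nearer control at 24 h, with means of 100.4, 81.8 and 80.3 TPM. These 4 were picked for their 12 h values, so a smaller difference at another time is expected from the choice alone. The difference between the 2 times was not tested. In all, 4 of 95 members lay wholly below the controls at 24 h and 1 wholly above, against 3.35% and 12.8% of all genes. The share wholly below was near that of all genes.

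The 24 h calls were few and moved with the setting. They were 0 on the deposited scale, 13 with median-ratio scaling, 0 with the 2 groups fitted alone and 2 without the muscle-rich libraries, of which 1, Cox7a1, was higher. All-gene shares under these settings are not given here. Leaving out control 1 or RT 24 h mouse 4 gave 2, and leaving out RT 24 h mouse 1 or mouse 3 gave 8 and 11. Markers of other cells moved in the same comparison. Of 6 macrophage markers 2 fell, their sum going from 1091 to 1873 TPM in controls to 891 to 1042 TPM, and of 6 T cell markers 2 fell, from 25.9 to 38.7 TPM in sum to 15.5 to 23.1 TPM. Of 6 neutrophil markers 1 rose, the sum going from 30.4 to 44.1 TPM to 52.4 to 210 TPM. None of these sums overlapped between the groups, and their part in the OXPHOS calls was not tested.

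At 3 h after RT in MC-38 no member passed in either direction (all genes 0.724% higher and 0.147% lower), and 5 had an unadjusted p under 0.05, all lower, where 3.28% of all genes were lower and 16% higher. Ndufb5 and Atp5l had the smallest p, at −0.20 and −0.23 (adjusted p = 0.213 and 0.223 by limma). Atp5l was at 182, 153, 161 and 135 TPM, from within the control range to well below it. Of the 95 members 29 were above control, where 68.7% of all genes were, and the members had a median of −0.05 against +0.11 over all genes.

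In RM-9 tumors no member passed the limma test at any time. The closest comparison was at 3 h, where 12 of 94 members were above control and 82 below (57.8% of all genes above), and the member median was −0.16, against +0.05 over all genes. The test called 0.985% of all genes higher and 0.215% lower there, and 23 members had an unadjusted p under 0.05, all lower, where 8.01% of all genes were lower and 18.4% higher. The direction was shared across the complexes, with 35 of 36 complex I subunits, all 4 of complex II, 7 of 8 of complex III and all 11 of complex IV below control.

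Atp5g2, named above at 24 h in MC-38, had the smallest p of the members in RM-9 at 3 h. Controls were at 284, 269, 247 and 286 TPM and RT 3 h tumors at 217, 232, 218 and 231 TPM, a clear gap between the groups, but the adjusted p was 0.0580 by limma (−0.27, SE 0.0664). It passed with median-ratio scaling, with a minimum mean of 5 TPM and with the coverage column, each time as the only member. Ndufv2, an iron-sulfur core subunit of complex I, also separated the groups (−0.28, adjusted p = 0.0856 by limma). In all, 4 members lay wholly below the controls and 1 above, against 3.99% and 10% of all genes.

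One control library weighed on this comparison. Without RM-9 control mouse 3, whose OXPHOS share was 1.67%, 14 of 94 members passed at 3 h (14.9%), all lower, where 2.98% of all genes were lower and 9.76% higher. The member median was then −0.23, against +0.07 over all genes. This library was named for its low level of these same members, so more lower calls without it follow in part from that choice. They are no separate sign of a fall. The muscle markers moved in the same comparison, as all 16 were below control. Their sum was 5905, 3313, 607 and 2673 TPM in the controls and 66.3, 2237, 8.84 and 13.7 TPM at 3 h, and Ckm was at 0 in 1 of the irradiated tumors. The 6 macrophage markers and the 5 T cell markers tested were also all below control, none past the test. So were the epithelial markers, with Krt18 at −0.48 (adjusted p = 0.0560 by limma). The fibroblast markers were all above control, none past the test. The macrophage sum went from 737 to 1119 TPM in controls to 493 to 758 TPM, and the T cell sum from 8.30 to 14.2 TPM to 3.23 to 7.42 TPM, without overlap. The part of these cells in the OXPHOS values was not tested. Leaving out the muscle-rich libraries left control 3, the low one, as the only control, with the spread taken from the other samples of the fit, so the member median of 0.00 and the 0 calls there rest on that 1 mouse. With the muscle sum as a covariate the median was −0.10.

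At 12 h in RM-9, 20 of 94 members were above and 74 below control (37% of all genes above), with a median of −0.09 beside −0.06 over all genes, so the members lay close to the rest. None passed (all genes 0.0652% higher and 0.45% lower), and at an unadjusted p under 0.05 there were 13 lower and 1 higher, against 13.9% and 2.91% of all genes. Uqcrfs1, the Rieske protein that takes electrons from ubiquinol, had the smallest p. It went from 127, 130, 111 and 128 TPM to 105, 110, 109 and 102 TPM, below all controls by a narrow margin (−0.22, adjusted p = 0.110 by limma). It passed without control mouse 3, its own lowest control, so that pass follows in part from which library was left out. Markers of other cells moved in this comparison. The muscle, macrophage and tested T cell markers were all below control, none past the test. Of the epithelial markers Krt18 was called lower (−0.60, adjusted p = 0.0478 by limma), Krt19 was at +0.01, and the others were below control without passing. Their part in the OXPHOS values was not tested. On the deposited scale 7 members fell, among them Atp5a1, Atp5b, Sdha and Uqcrfs1. The mean mitochondrial share was 49.2% in RM-9 controls and 54.1% at 12 h, and it moves every level on that scale. The all-gene share on that scale is not given here, so this count is not a result about the members alone.

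At 24 h in RM-9 the members were evenly split, 47 above and 47 below control (47.6% of all genes above), with a median of 0.00. No gene of any kind passed in this comparison (0% of 15329), and 1 member had an unadjusted p under 0.05, lower, where 3.14% of all genes were lower and 3.06% higher. Atp5g2 was at 233, 254 and 238 TPM, overlapping the lowest control (−0.17, adjusted p = 0.763 by limma). With 3 irradiated tumors the smallest exact p for a single member is 0.0571 in two-sided form.

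**Figure D3:**
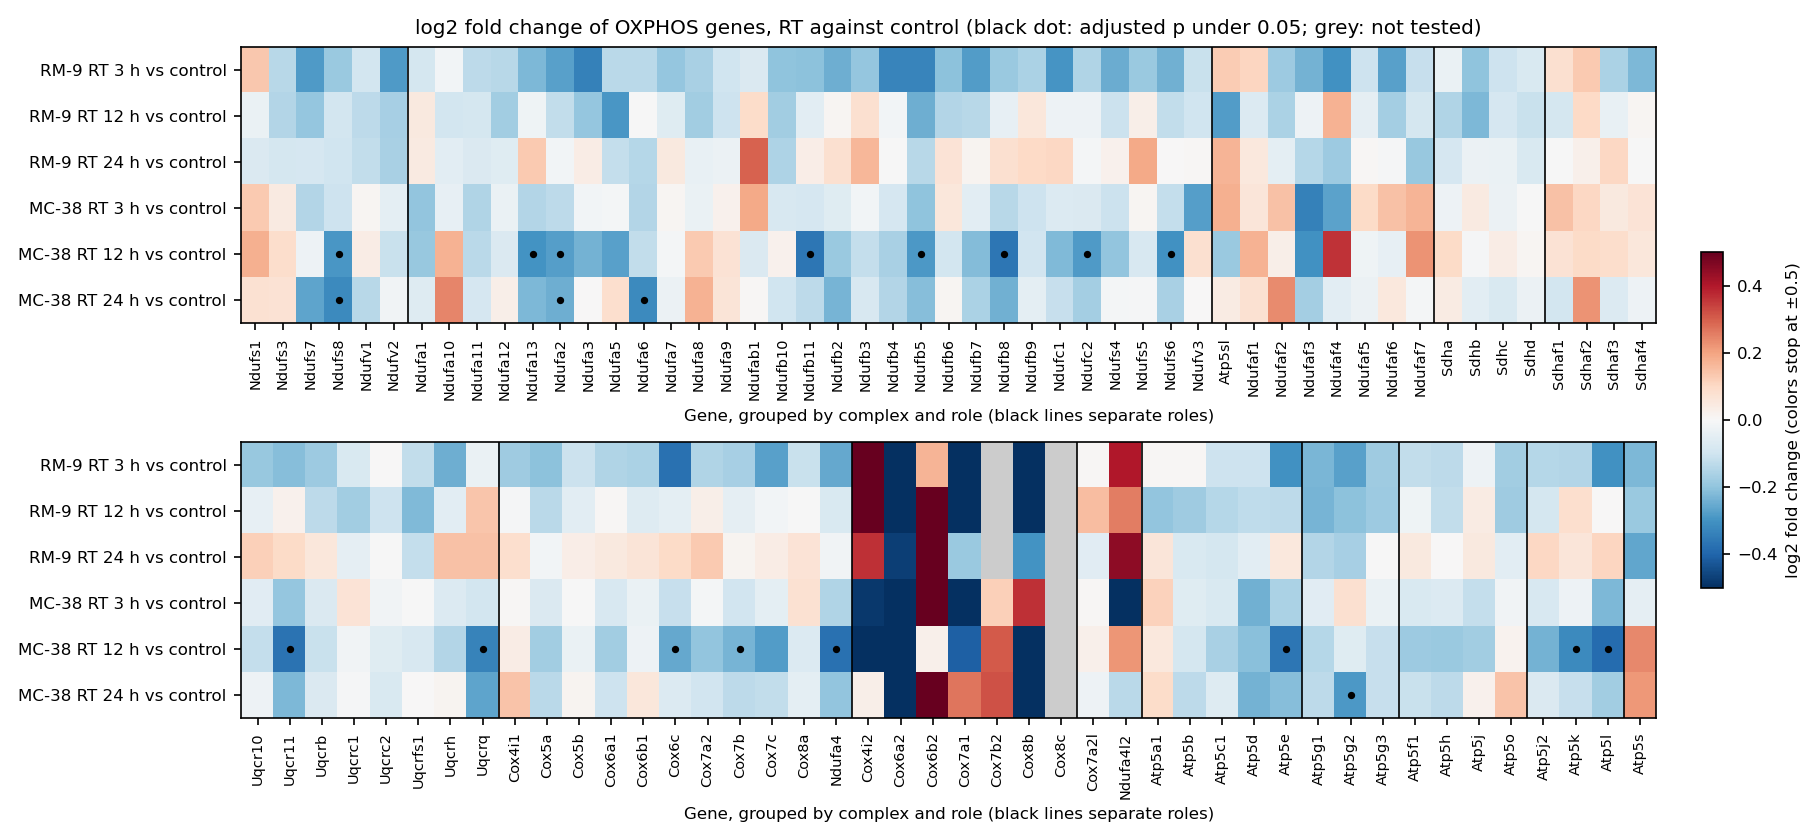
log2 difference of the OXPHOS genes shown from control (color, stopping at 0.5 in either direction) in the 6 comparisons of RT with control (rows), with genes grouped by complex and role (columns). Black dots mark an adjusted p under 0.05 and grey cells were not tested. Dots are found only in MC-38, 16 at 12 h and 4 at 24 h, and the complex IV tissue isoforms have the deepest colors.

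The RT response itself was then compared between the models, as the difference of the MC-38 and RM-9 log2 differences. No member passed at any time. At 12 h, 13.1% of all genes rose more in MC-38 and 0.682% less, and at an unadjusted p under 0.05 there were 6 members higher and 8 lower (29% and 2.79% of all genes). The member median was 0.00 against +0.25 over all genes. Atp5k came closest, being −0.32 in MC-38 and +0.09 in RM-9, a difference of −0.40 (SE 0.138, adjusted p = 0.0503 by limma). Cox4i2, a complex IV isoform of low level, differed by −1.51 (adjusted p = 0.0536), and Uqcrq by −0.47 (0.0664). So the 16 calls in MC-38 and 0 in RM-9 at 12 h were not shown to differ at this threshold. At 3 h, 0.00615% of all genes were called higher and 0% lower, 4 members had an unadjusted p under 0.05 and were higher and 2 lower (7.47% and 2.78% of all genes), and the member median was +0.12. At 24 h the calls over all genes were 1.97% higher and 0.135% lower, 3 members were higher and 4 lower at an unadjusted p under 0.05 (15% and 2.58% of all genes), and the member median was −0.11. All-gene medians at 3 h and 24 h are not given here, so the member medians at those times have no background beside them.

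Before RT the control tumors of the models differed widely. Any technical difference between the samples of the models cannot be told apart from tumor model in this comparison. In control tumors 47 of 95 members (49.5%) were higher in MC-38 and 9 (9.47%) lower. Over all genes 44.2% were higher and 21.5% lower, so the members were near the background for higher calls and below it for lower ones, and the member median of +0.22 lay beside +0.25 over all genes. The count follows the scaling, with 17 higher and 25 lower after median-ratio scaling and 81 higher and 0 lower on the deposited scale. All-gene shares under those scalings are not given here, so these counts have no background beside them. In the scaling used here, 40 members lay wholly above and 7 wholly below, against 35.8% and 18.5% of all genes.

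Some members stood far from that median. Ndufaf5, which modifies a complex I core subunit during assembly, was at 14.5, 15.0, 13.7 and 15.7 TPM in RM-9 controls and at 40.4, 44.7, 46.4 and 43.5 TPM in MC-38 controls, without overlap (+1.54, SE 0.0944, adjusted p = 1.06e-13 by limma). Ndufaf3, another complex I assembly factor, was higher by 1.20. In complex III, Uqcrq was higher by 0.93, Uqcr10 by 0.79 and the core protein Uqcrc2 by 0.60. The members lower in MC-38 included Cox7c (−0.48), Ndufa2 (−0.37) and Cox7a2l (−0.43), the last a factor that joins complexes III and IV in supercomplexes.

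Complex IV has isoforms that particular tissues use in place of the common subunit, and these followed other RNA in the samples. Cox8b, Cox6a2 and Cox7a1 are the heart and skeletal muscle forms of Cox8a, Cox6a1 and Cox7a2. Cox8b was at 24.8, 19.7, 4.93 and 10.3 TPM in RM-9 controls and at 0, 9.40, 0 and 0 TPM at 3 h. In MC-38 controls it was at 121, 0, 0 and 14.1 TPM. Thus it was present in some tumors of a group and listed at 0 in others, and it was at 0 in 13 libraries with muscle marker sums of 8.84 to 253 TPM and above 0 in 18 with sums of 227 to 25112 TPM.

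Cox6a2 went with the muscle markers in RM-9, where it was at 0 in 4 libraries whose sums were 8.84 to 49.4 TPM. In MC-38 it was never at 0. It was at 22.1 TPM in the MC-38 tumor with the lowest muscle sum (14.6 TPM), ranged down to 9.85 TPM, and was highest at 204 TPM in the control with the most muscle RNA. Cox6a2 overlaps Itgad, an integrin gene, on the opposite strand. Spearman's rho with the muscle sum was 0.97 (15 RM-9 libraries) and 0.94 (16 MC-38 libraries) for Cox8b, 0.98 and 0.81 for Cox6a2, and 0.88 and 0.19 for Cox7a1, given as descriptions over libraries that share their groups. These isoforms had the widest differences of all members, −3.69 for Cox6a2 and −3.64 for Cox8b in RM-9 at 3 h (adjusted p = 0.116 and 0.0754 by limma) and −2.42 for Cox8b in MC-38 at 12 h (adjusted p = 0.317), none past the test.

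Cox7b2, described in testis, split the models instead. It was at 0 in 14 of 15 RM-9 libraries and at 0.263 TPM in 1, and was present in all 16 MC-38 libraries at 0.923 to 6.23 TPM, a group that does not overlap the RM-9 one. MC-38 controls were at 1.66, 3.05, 2.01 and 4.73 TPM against 0 in all 4 RM-9 controls, so no fold is given. Cox4i2, an isoform of lung and of low oxygen, was at or below 2.64 TPM everywhere, and the testis isoform Cox6b2 at or below 3.98 TPM. Neither was called in any comparison with RT. Ndufa4l2, a paralog of Ndufa4 known from low oxygen, stayed between 3.56 and 13.9 TPM.

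**Figure D4:**
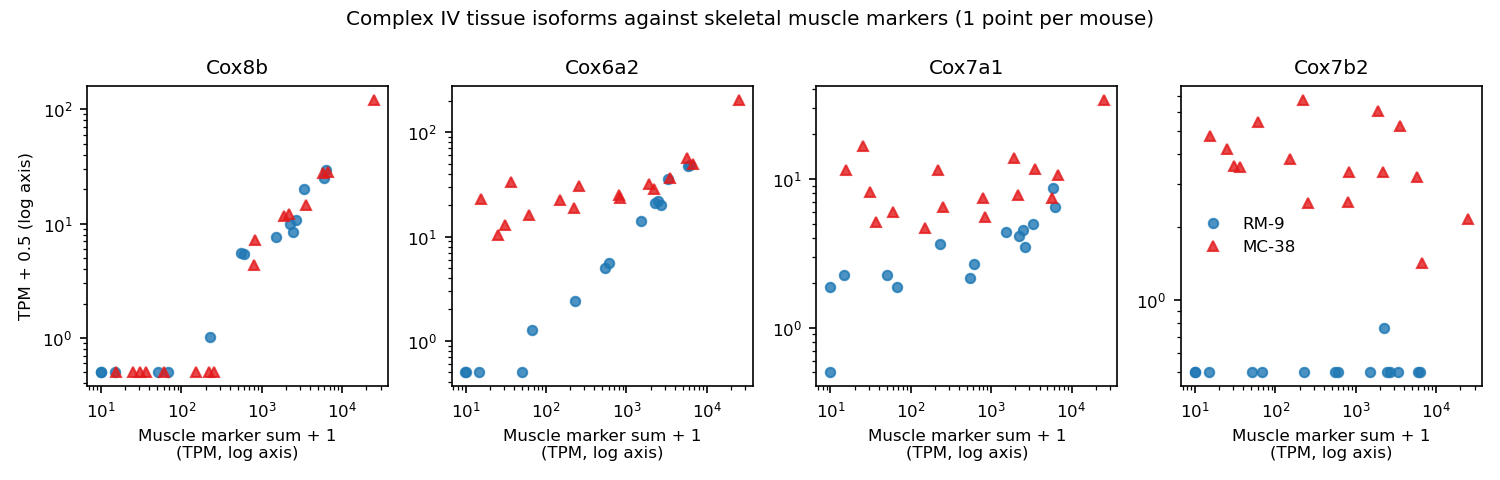
TPM + 0.5 of 4 complex IV tissue isoforms (y axis, log scale) against the summed skeletal muscle markers + 1 in TPM (x axis, log scale), 1 point per mouse, circles for RM-9 and triangles for MC-38. Cox8b sits at the floor in 13 libraries, all with muscle sums of at most 253 TPM, MC-38 keeps Cox6a2 at low muscle sums, and Cox7b2 separates the models.

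Transcript length is a feature that the naming rule did not use. Most members are short, with a median of 711 bases over the 95 tested in MC-38 (median protein-coding transcript of each gene in GENCODE M21), against 2093 bases over all genes. The median is over all annotated transcripts of a gene, not those expressed in these tumors. It puts Ndufs1, the largest core subunit of complex I, at 651 bases and the accessory subunit Ndufb2 at 2413. The split by length is therefore approximate. The 16 members that fell at 12 h had a median of 570 bases (322 to 1251), and the other 79 had 745 bases. The 67 members under 1000 bases had a median log2 difference of −0.16 and the 28 longer ones +0.01. Over all genes the same split gave +0.08 and +0.25. Spearman's rho between length and log2 difference was 0.44 over the 95 members and 0.29 over 13103 genes, genes not being independent replicates.

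In RM-9 at 3 h, the comparison with the lowest member median, the corresponding rho was 0.33 over 94 members and 0.40 over all genes, with medians of −0.19 for short and −0.10 for long members and −0.07 and +0.10 for all genes. In RM-9 at 3 h and MC-38 at 12 h short members had a lower median than long ones, and so did short genes in general. At the other times the member rho in MC-38 was 0.23 at 3 h and 0.12 at 24 h (all genes 0.22 and 0.19). In RM-9 the member rho was −0.09 at 12 h and −0.21 at 24 h (all genes 0.10 and 0.02), so short members were not the lower ones there. Whether length itself or RNA quality had a part in the calls was not tested.

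**Figure D5:**
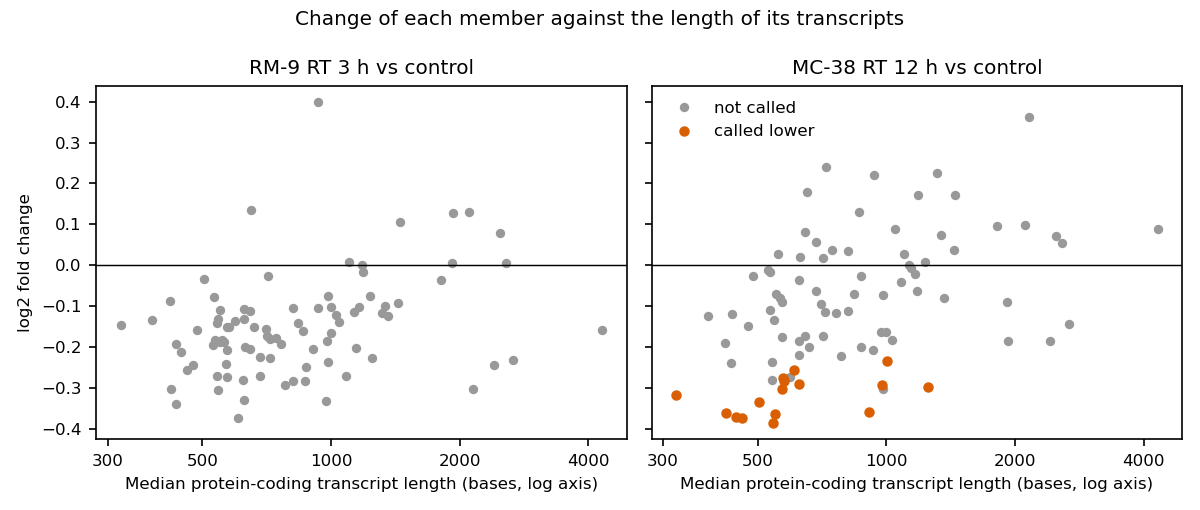
log2 difference from control (y axis) against the median protein-coding transcript length (x axis, bases, log scale) for 89 OXPHOS genes in RM-9 at 3 h (left) and MC-38 at 12 h (right), without the complex IV tissue isoforms. Orange points passed the test in MC-38 and lie at 322 to 1251 bases and at −0.39 to −0.23, and grey points did not pass.

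Nuclear OXPHOS genes are known to share promoter elements for NRF1 and for ETS family factors such as GABP, and YY1 elements are found in several of them. The window from 250 bases before to 50 after the start was read from RefSeq (GRCm38.p6) for 77 of the 96 symbols, in 82 windows, and searched on both strands for the NRF1 letters (GCGC and TGCGC with any 1 base between them), CCGGAAG (ETS) and AAGATGG (YY1). NRF1 letters stood in 26.83% of the member windows and in 4.6% of 32851 windows of all genes. ETS letters stood in 24.39% and 8.86%, and YY1 letters in 12.2% and 6.34%.

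Among members that fell in MC-38 at 12 h, 13 had a window. ETS letters stood in 5 of them (38.46%) and NRF1 letters in 2 (15.38%), and among the other members' 69 windows in 21.74% and 28.99%. With 13 windows these shares are descriptions. The stretches below, from 150 to 31 bases before the start in the direction of the gene, are shown because they carry the matches, in capitals, in 3 members that fell (Atp5e, Uqcr11, Atp5k) and 2 that did not (Sdha, Cox6a1). Capitals mark ETS letters, on either strand, in Atp5e and Uqcr11 and NRF1 letters in the others. Sdha holds 3 NRF1 matches in its whole window, 2 of them in the stretch printed. All 5 genes lie on the minus strand, at chr2:174464132-174464251, chr10:80406852-80406971, chr5:108434430-108434549, chr13:74350271-74350390 and chr5:115348989-115349108 in the order printed.
Atp5e: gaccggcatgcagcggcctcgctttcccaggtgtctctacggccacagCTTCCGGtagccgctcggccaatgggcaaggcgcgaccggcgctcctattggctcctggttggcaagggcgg
Uqcr11: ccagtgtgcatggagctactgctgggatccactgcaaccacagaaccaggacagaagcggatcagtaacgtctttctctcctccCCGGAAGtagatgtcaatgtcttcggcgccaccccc
Atp5k: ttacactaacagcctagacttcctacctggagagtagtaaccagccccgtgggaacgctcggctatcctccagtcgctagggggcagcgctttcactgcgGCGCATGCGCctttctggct
Sdha: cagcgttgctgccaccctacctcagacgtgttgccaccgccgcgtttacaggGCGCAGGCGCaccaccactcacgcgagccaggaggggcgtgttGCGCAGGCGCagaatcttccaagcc
Cox6a1: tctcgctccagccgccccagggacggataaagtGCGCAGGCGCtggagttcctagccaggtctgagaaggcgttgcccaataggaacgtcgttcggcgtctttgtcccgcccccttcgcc

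The genes around OXPHOS were read in the same fit. Of 16 TCA cycle enzymes, 4 rose in MC-38 at 12 h, Ogdh, Dlat, Dlst and Mdh2 (+0.36, +0.31, +0.24 and +0.22), and none fell. Of 13 regulators of mitochondrial genes tested, 1 rose, Ppargc1b, a coactivator of such genes (+0.91, adjusted p = 0.00670 by limma). Assembly factors outside the naming rule gave 3 higher and 1 lower of 36, with Acad9, a complex I assembly factor, at +0.49. Cycs and Cyc1, which encode cytochrome c and the cytochrome c1 of complex III, differed by −0.12 and +0.06 and did not pass. These counts stand beside the all-gene shares of 19.6% higher and 4.22% lower given above for this comparison, so the TCA cycle share was near the background.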

How the data were processed

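Messenger RNA libraries (TruSeq Stranded, single reads of 75 bases) were made from 31 tumors, 1 per mouse. The authors deposited 1 table per library with TPM, FPKM and coverage (a signal, mean read depth per base) for each gene, TPM being scaled within each library with mitochondrial genes included. Per the labels the reads were written with bcl2fastq 2.17 and the build was GRCm39, but the gene coordinates match GRCm38 (GENCODE M21), and the aligner and quantifier are not given in the sources used here. Rows of the same gene were summed. TPM was rescaled to the same total without the mitochondrial genome. Coverage divided by FPKM gave the depth. No read counts were used, so counting error of single genes is unknown.

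Each RT time was compared with control within a model by limma 3.58.1 (R 4.3.3; lmFit and eBayes with trend on log2(TPM + 0.5), the 4 groups of a model in 1 fit, genes with mean TPM of at least 0.5, Benjamini-Hochberg over all genes). A fold on this scale understates the change of low genes. Differences between models came from 1 fit of all 8 groups. The fit was tested on simulated data. Single genes were also compared by exact permutation with scipy 1.17.1. Alternatives were another pseudocount, filter, scaling, Dunnett's comparisons on TPM (the test of the study), each library left out, and, added after seeing the data, the coverage column, leaving out muscle-rich libraries, and muscle level as a covariate. Named were members listed by function, the most significant and the most extreme of each comparison, and members singled out after their values were seen (among them Atp5l, Atp5e, Uqcrq, Uqcr11, Ndufa2, Ndufs1, Ndufaf7, Atp5s, Cox7b2 and Ndufaf5). The members and lists were chosen with earlier results of these data known. Mice of the same number were different animals. A member of the set is counted but not reported by name here.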

Additional observations from a re-analysis of the deposited data

Results flagged for a closer look

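In 27 of 252 groups of 4 mice (10.71%), 1 mouse stood apart from the other 3 by more of the range than Dixon's 95% critical value for 4 samples allows, where chance flags about 1 in 20. No explanation was tested for any of them.

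RM-9 control mouse 3 was low in 5 measures. Its OXPHOS share was 1.67% (1.665 before rounding) against 1.96% to 1.99%, Cox5b was at 308 TPM against 383 to 388, Cox6b1 at 418 against 511 to 522, Ndufv1 at 96.4 against 106 to 108, and Uqcrfs1 at 111 against 127 to 130.

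Muscle markers and muscle isoforms of complex IV went together. RM-9 RT 3 h mouse 2 had a muscle marker sum of 2237 TPM (others up to 66.3), Cox6a2 at 20.7 (others up to 0.772), Cox8b at 9.40 (others 0) and Cox7a1 at 3.63 TPM (others up to 1.74). RM-9 RT 12 h mouse 3 had a sum of 2464 (others up to 227), Cox6a2 at 21.2 and Cox8b at 7.92 TPM. MC-38 control mouse 1 had a sum of 25112 (others up to 3528), Cox6a2 at 204 and Cox8b at 121 TPM, with Cox4i1 low at 816 TPM (others 848 to 853). MC-38 RT 12 h mouse 2 had a sum of 795 (others up to 59.6) and Cox8b at 3.86 TPM (others 0), with Cox8a high at 906 (others 851 to 859) and Cox6b1 low at 406 (others 430 to 433).

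The rest were single values. Atp5b was high in MC-38 control mouse 4 at 1549 TPM (others 1444 to 1455), and Atp5g3 was low in RM-9 RT 12 h mouse 2 at 572 (others 635 to 643). Cox4i2 was at 2.64 TPM in RM-9 RT 12 h mouse 1 (others up to 1.396), Cox6b2 at 1.54 in MC-38 RT 12 h mouse 3 (others 0), and Ndufaf4 at 21.1 in RM-9 RT 3 h mouse 3 (others up to 12.3). MC-38 RT 24 h mouse 3 was high for Ndufa6 at 154 (others up to 135) and Ndufb5 at 113 (others up to 99.2).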

How the results depend on the processing

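Counts of members called moved with the scale and the libraries. All-gene shares under these alternatives are not given here. The counts therefore show how far the calls move and are no result about the members alone. On the deposited scale there were 2 in MC-38 at 12 h, both higher, 0 at 24 h, 7 in RM-9 at 12 h and 30 for the difference between models at 12 h, against 16, 4, 0 and 0. With median-ratio scaling there were 39, 13, 1 in RM-9 at 3 h and 2 for the 12 h difference. A minimum mean of 5 TPM gave 7 in MC-38 at 24 h, 1 in RM-9 at 3 h and 1 for the 12 h difference, and a pseudocount of 1 gave 1 for that difference. The chromosome 1 copies of mitochondrial genes left out of the scale gave 2 there. The coverage column gave 9 in MC-38 at 24 h, 1 in RM-9 at 3 h, 3 for the 12 h difference and 1 for the 24 h difference. Without muscle-rich libraries there were 0 in MC-38 at 12 h and 2 at 24 h, and with the muscle covariate 4 at 12 h and 3 for the 12 h difference. Dunnett's comparisons on TPM gave 3 in MC-38 at 12 h, and the 2 groups alone gave 0 at 24 h. The cause was not tested.

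Leaving out 1 library gave 6 to 21 calls in MC-38 at 12 h, 2 to 11 at 24 h, 0 to 14 in RM-9 at 3 h, 0 to 1 at 12 h, and 0 to 7 and 0 to 1 for the differences at 12 h and 24 h. The 7 came without RM-9 RT 12 h mouse 2. Control tumors of the models gave 51 to 56.

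Mouse numbers did not pair the samples, since 12 of 45 same-numbered pairs correlated above 0.1 (−0.487 to 0.550). With a replicate block 15 members were called in MC-38 at 12 h and 4 at 24 h, and 1, Sdha, for the 12 h difference, where the main fit had 0.

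No direction turned among the 7 single results followed (4 genes at 12 h and 3 at 24 h in MC-38), and their adjusted p stayed under 0.05 in 127 alternatives and rose above it in 20. Depth allowed no counting error, so members near 0 TPM, such as Cox4i2 and Cox6b2, are the least certain.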

Other observations

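Further sets of genes gave values in the same fits that no comparison above uses. Cytoplasmic ribosomal protein genes (names starting with Rpl or Rps), most of them short and abundant, gave 20 lower and 0 higher of 87 in MC-38 at 12 h and 30 lower and 0 higher at 24 h, with medians of −0.12 and −0.18. Over all genes 4.22% were lower and 19.6% higher at 12 h, and 2.76% and 13.3% at 24 h. Mitochondrial ribosomal protein genes (Mrpl, Mrps), which make the proteins that translate the mitochondrial subunits, gave 9 lower and 2 higher of 77 at 12 h, with a median of +0.05. In RM-9 at 3 h, where 0 genes of either set passed, the medians were −0.17 and −0.16, beside −0.16 for the OXPHOS genes.

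Of 36 assembly factors outside the naming rule, 7 were higher in MC-38 at 24 h (19.4%) and 6 lower (16.7%), where 13.3% of all genes were higher and 2.76% lower. Acad9 (+0.50), Cox18 (+0.50), Cox10 (+0.37) and Bcs1l (+0.37), which serve complexes I, IV and III, were among those higher. Sco2 (−0.47) and Coa4 (−0.45), both linked to complex IV, were among those lower.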
